A study of Mus musculus with 17 samples.

Results

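The genes described here are 29 genes of cholesterol synthesis, its control by SREBP2 and the movement of sterols within the cell. They were chosen by gene symbol from a table of 31245 genes, and all 29 were among the 26946 genes tested. Lungs came from 17 mice in 6 groups. Sv/129 wildtype mice (WT) had been bought, whereas PPARα null mice (KO) and mice with human in place of mouse PPARα (hPPARα, KI) were bred together from PPARα null and hPPARα heterozygous parents, so genotype and breeding source cannot be told apart. All mice, vehicle groups included, ate a custom diet modelled on what American adults eat from 6 weeks of age, and drank water with 0.5% sucrose. For 14 weeks this water held either no PFOA (vehicle) or 6.2 μg/mL perfluorooctanoic acid (PFOA, labelled Hi-PFOA), a perfluorinated fatty acid analogue that binds PPARα. WT vehicle had 2 libraries (animals 107 and 122). WT PFOA (50, 56 and 65), KO vehicle (137, 145 and 149), KO PFOA (52, 154 and 155), KI vehicle (102, 116 and 135) and KI PFOA (57, 80 and 139) had 3 each. All KO libraries were from females, while the other groups held both sexes, and every KO PFOA library carried an i5 sequencing index that no KO vehicle library carried.

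Cells make cholesterol from acetyl-CoA through mevalonate, isoprenoid diphosphates, squalene and lanosterol. The pathway is controlled mainly by transcription. When membranes of the endoplasmic reticulum are poor in sterol, the escort protein SCAP carries SREBP2 to the Golgi, where the site-1 and site-2 proteases (Mbtps1 and Mbtps2) free the part that enters the nucleus and activates the synthesis genes. When sterol is plentiful, the INSIG proteins hold SCAP back, so that the synthesis genes fall together. In the lung, cholesterol is part of surfactant, and alveolar macrophages take up and store lipid. PPARα, the receptor altered in the KO and KI mice, is a nuclear receptor that activates genes of fatty acid oxidation.

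Total counts per library ranged from 4116116 (KO vehicle 137) to 9237385 (KO PFOA 154). Libraries WT vehicle 122 and KO vehicle 137 stood apart, with 65.3% and 61.3% of their counts in protein-coding genes against 74.4% to 80.4% in the other 15. KO vehicle 137 also had the lowest summed level of the markers of alveolar type 2 cells, type 1 cells, alveolar macrophages, endothelial cells and fibroblasts, while WT vehicle 122 had the highest of club cells (24861 CPM, read counts scaled to a fixed library total, against 4691 to 11433 in the rest). All markers of alveolar type 2 cells (8 of 8) and type 1 cells (5 of 5) were above 1 CPM in the mean over libraries, and none of the 5 hepatocyte markers was, though Alb reached 3.59 CPM in KO PFOA 52. Ppara itself was not lower in the libraries labelled KO (10.4 ± 1.3 CPM on vehicle and 10.1 ± 1.2 on PFOA, SD, n = 3 each) than in WT (6.67 ± 0.76, n = 2, and 5.46 ± 1.3, n = 3), and had 14.4 ± 1.5 and 14.8 ± 5.7 CPM in KI (n = 3 each). Whether the altered part of the gene is left out of these counts was not tested, so the genotypes are used as labelled.

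SREBP2 binds sterol regulatory elements, often beside sites of the factors NF-Y (the CCAAT box) and Sp1 (the GC box). RefSeq promoter windows of the build GRCm38.p6 were matched for 24 of the 29 genes (not Fdps, Fdft1, Sqle, Stard4 and Npc1), with 30 start sites, and the 250 bases before each start were searched on both strands. The element TCACNCCAC was found in 1 gene, Hmgcs1, and in 1.05% of 32851 windows of all genes. CCAAT was found in 66.7% of the members' windows, from 20 of the 24 genes, and in 33.8% of all windows. GGGCGG was found in 73.3% of the members' windows, also from 20 genes, against 32.7% of all windows and 42.6% of those of protein-coding genes. These are matches of letters and not measured binding. The bases just before the start are shown for Ggps1, the member with the smallest p-value between genotypes, for Hmgcs1, which holds the sterol element, and for Mvd, with the next smallest p-value after Ggps1 in KO against WT. They are written 5′ to 3′ on the gene's strand (Ggps1, chr13:14063489-14063608, minus strand; Hmgcs1, chr13:119690101-119690350, plus strand; Mvd, chr8:122443423-122443672, minus strand), and capitals mark the 3 motifs on either strand.
Ggps1: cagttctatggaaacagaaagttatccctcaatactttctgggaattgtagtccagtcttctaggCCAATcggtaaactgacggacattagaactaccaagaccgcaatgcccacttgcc
Hmgcs1: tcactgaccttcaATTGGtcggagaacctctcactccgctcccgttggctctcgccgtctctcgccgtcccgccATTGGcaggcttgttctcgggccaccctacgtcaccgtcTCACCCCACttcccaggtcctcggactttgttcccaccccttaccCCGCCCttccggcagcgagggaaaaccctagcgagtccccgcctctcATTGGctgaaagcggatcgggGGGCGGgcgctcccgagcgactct
Mvd: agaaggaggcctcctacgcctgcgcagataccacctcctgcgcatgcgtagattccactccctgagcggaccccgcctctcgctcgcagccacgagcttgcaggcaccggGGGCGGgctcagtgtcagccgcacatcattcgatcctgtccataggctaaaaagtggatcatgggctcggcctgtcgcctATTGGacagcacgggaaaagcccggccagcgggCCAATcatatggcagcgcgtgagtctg
In Ggps1 a single CCAAT lies 55 to 51 bases before the start, and no GC box was found. Hmgcs1 holds its sterol element 137 to 129 bases before the start, among 3 CCAAT boxes and 2 GC boxes, and Mvd holds 2 CCAAT boxes and 1 GC box.

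All 29 genes were detected in every library. Levels between genes are compared as CPM per kilobase of annotated exon, averaged over the 17 libraries. Npc2, which binds cholesterol in the lysosome and hands it to the membrane protein NPC1, was the highest at 48.9 CPM per kb. It was followed by the regulators Srebf2 (16.02) and Insig1 (14.4), by Soat1 (14.3), which esterifies cholesterol for storage, by Mbtps1 (13.9), and by Hmgcs1 (12.8), which makes HMG-CoA, the precursor of mevalonate. Neighbours in this order overlapped in their ranges over the libraries, except Npc2, whose lowest library (27.8 CPM per kb) was above the highest of Insig1 (19.6), the largest value of any other member. At the low end stood Mvd (1.79), which makes isopentenyl diphosphate, the sterol reductase Tm7sf2 (1.62), the keto-reductase Hsd17b7 (0.976), and Dhcr7 (0.771), which carries out a last reduction on the way to cholesterol. In raw counts this meant 8 to 37 counts per library for Mvd and 10 to 60 for Dhcr7, so that counting error weighs most on those genes. Within groups, Srebf2 varied least, with a standard deviation of 0.09 on the log2 CPM scale, and Sc5d, the sterol desaturase, most (0.43, or 0.27 without KO vehicle 137).

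**Figure D1:**
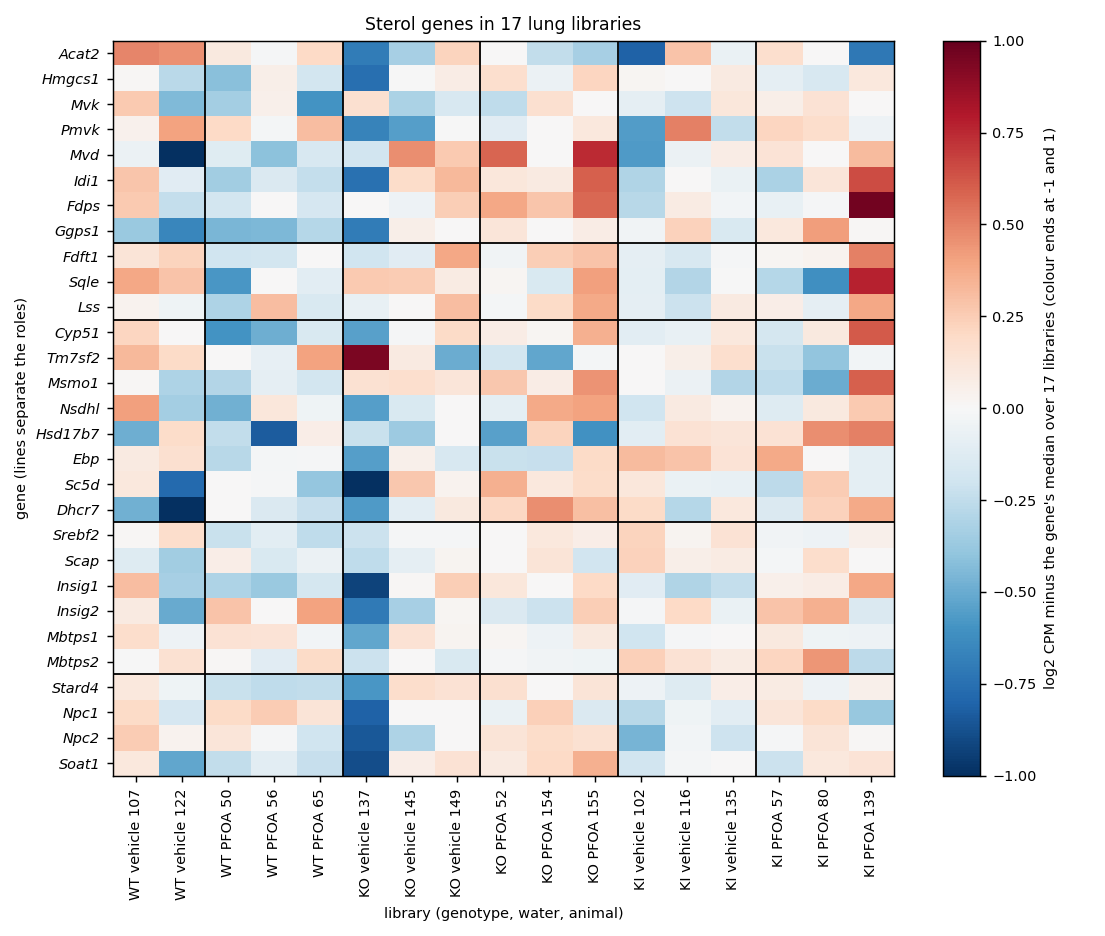
Heat map of the 29 genes (rows, ordered by role) in the 17 libraries (columns, by group), as log2 CPM minus the gene's median over the libraries, with colours ending at -1 and 1. KO vehicle 137 is low for most genes but high for Tm7sf2 (13.4 CPM against 4.68 to 9.12 in the other libraries), and KI PFOA 139 is high for Fdps (26.8 CPM) and Sqle (35.6 CPM).

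The first question was whether PFOA changed these genes in the lung. None of the 29 was altered by PFOA in WT, in KO, in KI or over the 3 genotypes (adjusted p under 0.2 and fold change over 2, edgeR's quasi-likelihood test), and 0% of all 26946 genes passed in each of these 4 comparisons. DESeq2 called 0 members in each as well, where it called 24, 68, 1 and 26 of the 26946 genes in WT, KO, KI and over the 3 genotypes (74, 72, 1 and 22 with its default filters). At an unadjusted p under 0.05 there were 2 members in WT (7.35% of all genes), 1 in KO (9.79%), 0 in KI (2.59%) and 1 over the 3 genotypes (8.27%), so the members' share, at most 2 of 29, was near that of all genes. The 95% interval of the effect lay within a 2-fold change in either direction for 24 of the 29 WT effects (41.2% of all genes), 27 in KO (45.6%), 28 in KI (49% of all genes), and 29 of 29 over the 3 genotypes (61.8%). The shares of all genes, here and for the intervals below, include genes totalling as few as 20 counts over the 17 libraries. Members had at least 8 counts in every library, so these shares are not matched for level. In bulk lung, fewer cells of a type and less RNA per cell cannot be told apart.

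Dhcr7 had the smallest p-value of the members over the 3 genotypes. In WT it had 3.20 and 1.64 CPM on vehicle (107 and 122) and 4.56, 4.09 and 3.86 CPM on PFOA (50, 56 and 65). In KO it had 2.99, 4.22 and 4.90 CPM on vehicle (137, 145 and 149) and 5.31, 6.39 and 5.68 CPM on PFOA (52, 154 and 155). The groups did not overlap in either genotype, and in both the PFOA libraries were the higher ones. Of all genes, 22.5% had no overlap in WT and 12.8% in KO, and 11.6% and 6.82% with PFOA higher. The lowest levels of all 17 libraries were in 122 and 137, the vehicle libraries with the lowest protein-coding shares. In KI the vehicle libraries had 5.25, 3.69 and 4.92 CPM (102, 116 and 135) and the PFOA libraries 4.11, 5.40 and 6.01 CPM (57, 80 and 139), and the groups overlapped. The log2 fold change over the 3 genotypes was 0.44 (SE 0.17, edgeR adjusted p = 0.532), from 0.76 (SE 0.34, adjusted p = 0.641) in WT, 0.50 (SE 0.28, adjusted p = 0.558) in KO and 0.16 in KI, so the difference was not past the threshold in any of them. Over the alternatives the value for the 3 genotypes lay between 0.27 and 0.51. The WT value rested on a single vehicle library each way, at 0.39 without 122 and 1.34 (adjusted p = 0.135, past the threshold for a call) without 107. In the fit without 107, WT vehicle was library 122 alone, whose spread was taken from the other groups, and 1672 of 26749 genes were called.

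Srebf2, which encodes SREBP2, was the other member under an unadjusted p of 0.05 in WT. Its WT vehicle libraries had 116 and 130.2 CPM and its WT PFOA libraries 98.6, 107 and 96.3 CPM, so that all 3 exposed libraries were below both vehicle libraries (log2 fold change -0.29, SE 0.13, edgeR adjusted p = 0.646). In KO it had 99.0, 114 and 114 CPM on vehicle and 115, 124 and 120.2 CPM on PFOA, again without overlap but with the exposed libraries on the higher side. The KI vehicle libraries had 134, 117 and 127 CPM, overlapping with the 112, 111 and 119 CPM of the KI PFOA libraries. The mean level thus stayed between 101 and 126 CPM in all 6 groups.

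Among the other regulators, Insig1, itself a target of SREBP2 whose product retains SCAP, had 57.0 and 36.5 CPM in WT vehicle and 37.3, 35.5 and 40.7 CPM in WT PFOA, which overlapped. In KI its vehicle libraries had 42.7, 37.3 and 38.9 CPM and its PFOA libraries 47.8, 48.4 and 60.5 CPM, the exposed ones being all higher (log2 fold change 0.40, SE 0.22, edgeR adjusted p = 1). Insig2, Scap, Mbtps1 and Mbtps2 had log2 fold changes over the 3 genotypes of 0.26, 0.06, 0.07 and 0.02, with adjusted p-values of at least 0.608 for all 6 regulators.

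**Figure D2:**
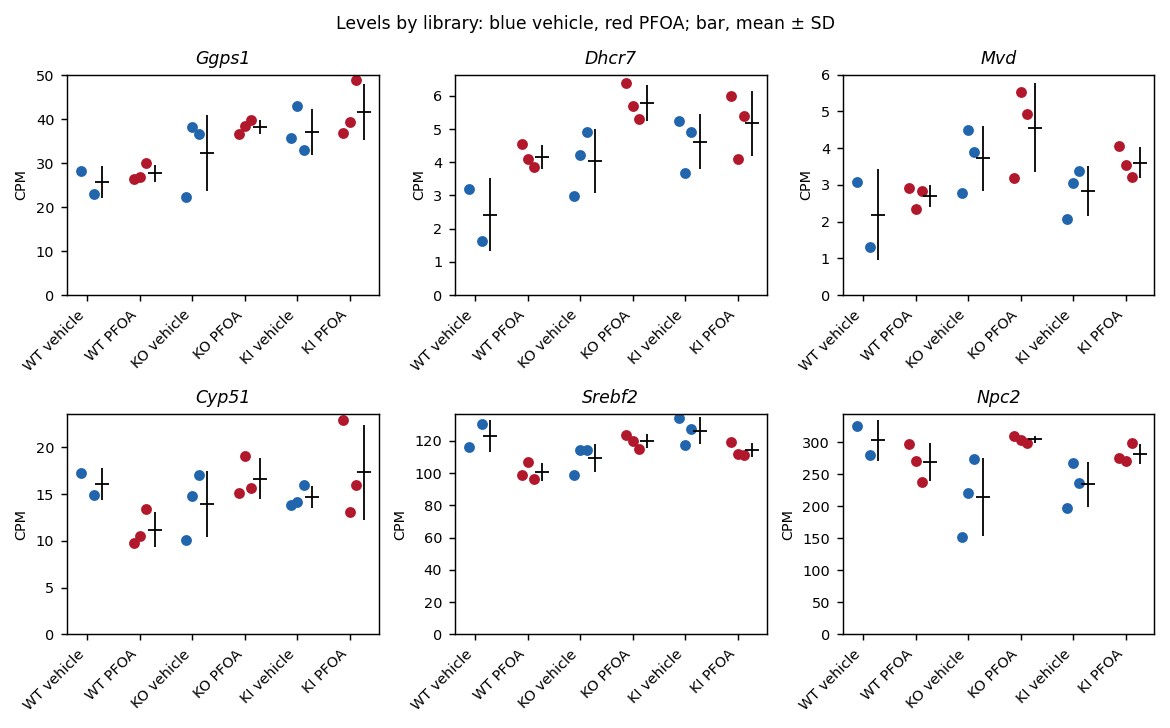
CPM of Ggps1, Dhcr7, Mvd, Cyp51, Srebf2 and Npc2 in each library (points, blue for vehicle and red for PFOA), with the mean and SD of each group beside them (n = 2 for WT vehicle and 3 for the others). All 5 WT libraries lie below the 6 KI libraries for Ggps1, while Srebf2 stays within 96.3 to 134 CPM throughout.

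The synthesis genes form 3 steps, and in none did a member pass the threshold on PFOA. In the mevalonate arm (Acat2, Hmgcs1, Mvk, Pmvk, Mvd, Idi1, Fdps and Ggps1), 2 of 8 genes had a log2 fold change above 0 in the WT comparison, against 8 in KO and 6 in KI. The squalene and lanosterol step (Fdft1, Sqle and Lss) had 0 of 3 above 0 for WT, 2 for KO and 3 for KI. From lanosterol to cholesterol (Cyp51, Tm7sf2, Msmo1, Nsdhl, Hsd17b7, Ebp, Sc5d and Dhcr7) the counts of 8 were 2 for WT, 6 for KO and 5 for KI.

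Among single synthesis genes, Cyp51, which demethylates lanosterol, had 17.3 and 14.9 CPM in WT vehicle and 9.76, 10.5 and 13.4 CPM in WT PFOA. These groups did not overlap, the exposed being lower, with a log2 fold change of -0.52 (SE 0.25, edgeR adjusted p = 0.677). Sqle, the squalene epoxidase, had 27.2 and 25.4 CPM on vehicle and 13.8, 20.8 and 19.3 CPM on PFOA in WT (log2 fold change -0.55, SE 0.30, adjusted p = 0.711). Acat2, Idi1, Fdft1, Ebp and the sterol carrier Stard4 were likewise lower in all 3 WT PFOA libraries than in both vehicle libraries. With Dhcr7 and Srebf2 this made 9 of 29 members without overlap in WT, 8 of them lower on PFOA. Of all 26946 genes, 6058 had no overlap (22.5%). Of these, 3131 had PFOA higher (11.6% of all genes) and the remainder had PFOA lower. In KO the members without overlap were Fdps, Dhcr7, Srebf2 and Npc2, all higher on PFOA (12.8% of all genes, and 6.82% in the higher direction). In KI they were Fdft1, Insig1 and Npc2, higher, and Tm7sf2, lower (8.23% and 4.45% of all genes).

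Over all 29 members the median log2 fold change on PFOA was -0.15 in WT (8 above 0), 0.23 in KO (26 above 0), 0.14 in KI (22 above 0) and 0.08 over the 3 genotypes (23 above 0). Of all genes tested, 53.3%, 46.9%, 50.8% and 48.2% were above 0, with medians of 0.04, -0.03, 0.01 and -0.01. These medians rested on single libraries. In WT, leaving out vehicle library 107 gave 16 of 29 above 0 and a median of 0.05. Library 107 had 15 of the 19 synthesis genes above their median. Without it, WT vehicle was library 122 alone, which stood apart with 65.3% of its counts in protein-coding genes. Relative to its own median over the 17 libraries, the median member lay at 0.11 in 107 and -0.12 in 122 (log2). In WT PFOA 50, 56 and 65 it lay at -0.22, -0.09 and -0.15. In KO, leaving out vehicle library 137 gave 21 of 29 and a median of 0.04. For KI the count was 21 and the median 0.05 without PFOA library 139. In KO vehicle 137, the median synthesis gene lay 0.54 below its own median on the log2 scale, in a library where well-covered genes (mean over 50 counts, 12133 genes) lay 0.30 below at the median. The part of RNA quality in the KO values was not tested.

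**Figure D3:**
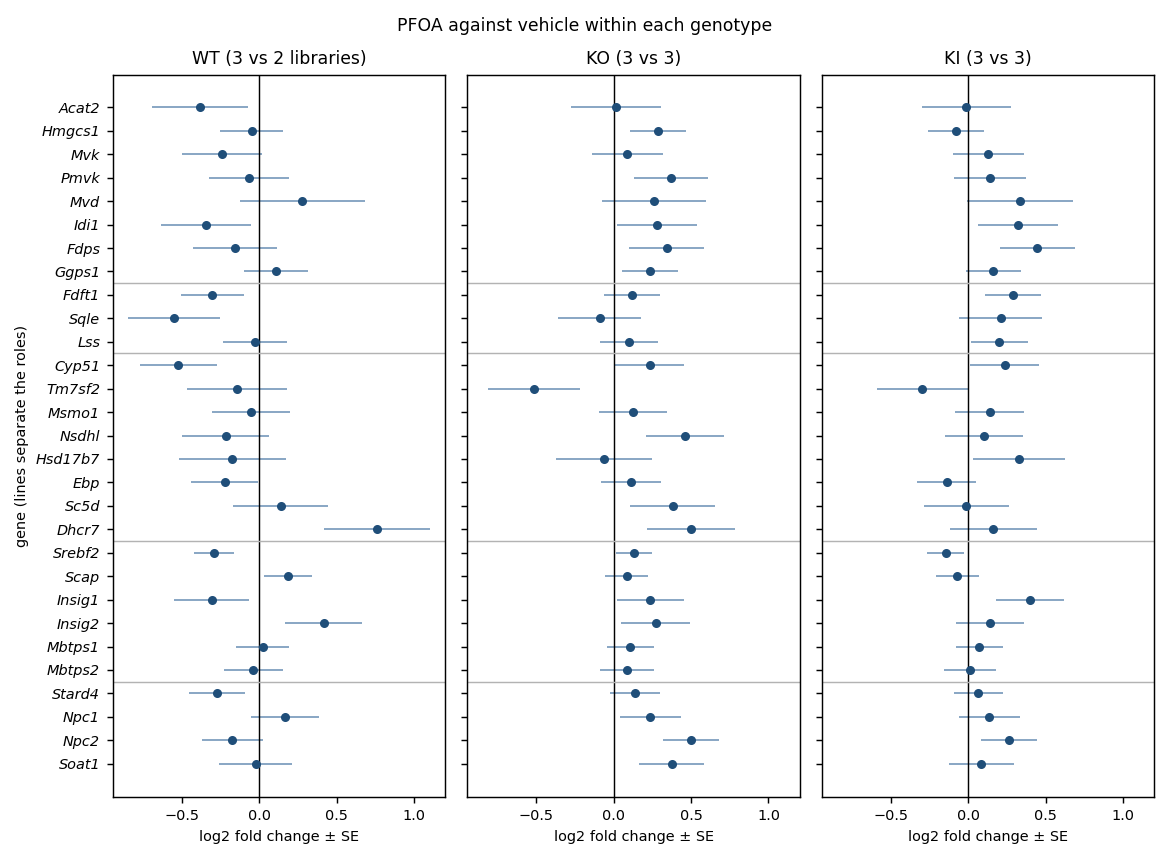
Log2 fold change of PFOA against vehicle for each of the 29 genes (points) with its standard error (bars), in WT, KO and KI, from the fit over 17 libraries. Most points lie left of 0 in WT (21 of 29) and right of 0 in KO (26 of 29) and KI (22 of 29), and none passed the threshold.

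Among the genes of trafficking and storage, Npc2 had the smallest p-value in KO. It had 151, 220.4 and 273 CPM in KO vehicle (137, 145 and 149) and 299, 310.1 and 304 CPM in KO PFOA (52, 154 and 155), where all exposed libraries were higher. In WT it had 326 and 280.4 CPM on vehicle and 297, 271 and 238 CPM on PFOA. The KI libraries had 198, 268 and 237 CPM on vehicle and 275, 271 and 299 CPM on PFOA. The log2 fold change was 0.50 in KO (SE 0.18, edgeR adjusted p = 0.477), but 0.30 (adjusted p = 1) without KO vehicle 137, and it was -0.17 in WT and 0.26 in KI. The lysosomal exporter Npc1 and Soat1 had values of 0.24 and 0.38 in KO, 0.17 and -0.02 in WT, and 0.14 and 0.08 in KI, none past the threshold.

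**Figure D4:**
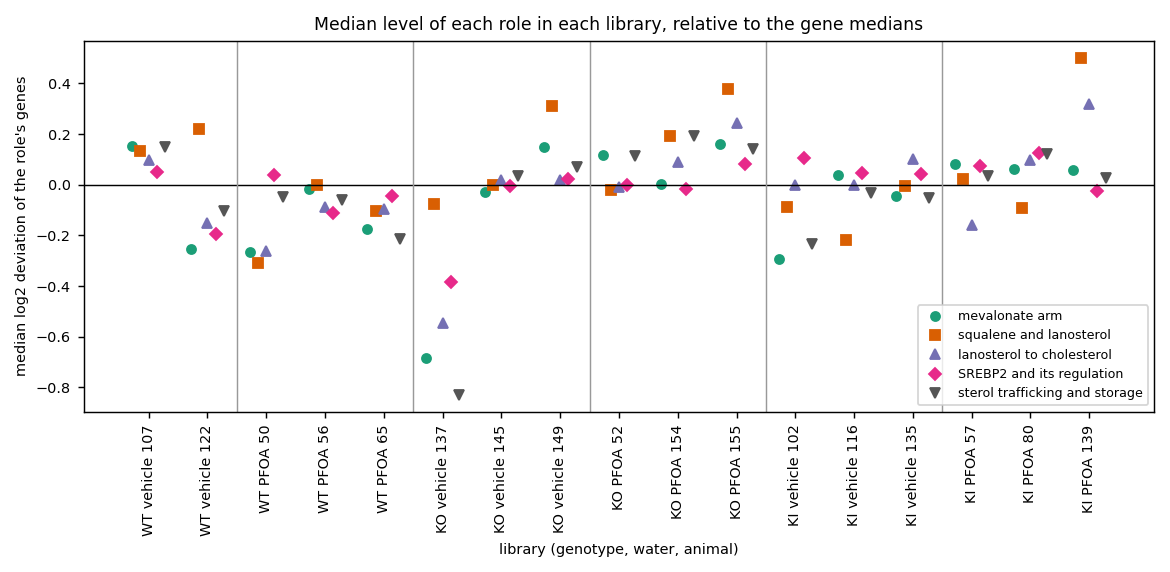
Median over the genes of each role of log2 CPM minus the gene's median over the 17 libraries (y axis), for each library (x axis, by group). KO vehicle 137 lies lowest for 4 of the 5 roles, and KI PFOA 139 lies highest for squalene and lanosterol (0.50) and for lanosterol to cholesterol (0.32).

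The next question was whether the response to PFOA differed with the PPARα genotype. The difference of the effects in KO and WT was past the threshold for 0 of 29 members and 0% of all genes, as was that of KI and WT and that of KO and KI (edgeR; DESeq2 gave 0 members in each, with 3, 1 and 3 of all genes). At an unadjusted p under 0.05 the counts were 3 members for KO against WT (7.46% of all genes), 3 for KI against WT (4.58%) and 0 for KO against KI (5.42%). Both comparisons with WT share the same 5 WT libraries, 2 of them on vehicle. For Cyp51 the effect was -0.52 in WT, 0.23 in KO and 0.24 in KI, and the differences from WT were 0.75 (SE 0.34, adjusted p = 0.669) and 0.76 (SE 0.33, adjusted p = 0.999). Cyp51, Fdft1 and Npc1 overlap the protein-coding genes Akap9, Ctsb and Rmc1 on the opposite strand, with which they may share reads. In KO the other members were Npc2, with a difference of 0.67 (SE 0.27), and Srebf2, with 0.42 (SE 0.18), both at an adjusted p of 0.669. In KI they were Fdft1, the squalene synthase (0.60, SE 0.27), and Insig1 (0.71, SE 0.33), both at an adjusted p of 0.999. The Insig1 difference was 0.34 without WT vehicle 107 and 0.98 without WT vehicle 122. The 95% intervals of the difference were within a 2-fold change for 13 of the members in KO against WT (30.1% of all genes), 15 in KI against WT (31.7%) and 22 in KO against KI (34.4%). For the remaining members a 2-fold difference in response lay within the interval.

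The last question was whether these genes differed between the genotypes, with exposure as an additive term. No member was past the threshold in KO against WT, where 2.36% of all genes were (637), in KI against WT (1.37%, 368 genes) or in KO against KI (0.00742%, 2 genes), and DESeq2 gave 0 members in each, with 799, 458 and 8 of all genes. Without the requirement of a 2-fold change, Ggps1 and Mvd were under an adjusted p of 0.2 in KO against WT (5.85% of all genes), and Ggps1 in KI against WT (2.79%). Ggps1 in KI against WT was the only value among the 10 comparisons with an adjusted p under 0.05, which 0.983% of all genes had there, 1.92% in KO against WT, 0.00742% in KO against KI, 0.00371% for PFOA over the 3 genotypes and 0% in the other 6. That holds for edgeR as set, and Ggps1 was also under 0.05 in KO against WT in 5 of 30 alternatives. All 29 members had a 95% interval within a 2-fold change in KO against KI (58.9% of all genes), 28 in KI against WT (54.7%) and 27 in KO against WT (54% of all genes).

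Ggps1 (ENSMUSG00000021302, chr13:14050659-14063488, minus strand) encodes geranylgeranyl diphosphate synthase, which leads isoprenoids from the mevalonate arm to protein prenylation rather than to sterol. It had 28.2 and 23.1 CPM in WT vehicle (107, then 122) and 26.5, 26.8 and 29.9 CPM in the exposed WT lungs (50, 56 and 65). In KI it had 35.7, 43.0 and 32.9 CPM on vehicle (102, 116 and 135) and 39.4, 48.8 and 36.8 CPM on PFOA (57, 80 and 139). Every KI library was thus above every WT library, which 2% of all genes showed in either direction. In KO it had 22.3, 38.1 and 36.5 CPM on vehicle (137, 145 and 149) and 39.9, 36.6 and 38.4 CPM on PFOA (52, 154 and 155), all above WT but for KO vehicle 137. Ggps1 was 1.48-fold higher in KI than in WT (log2 fold change 0.57, SE 0.13, edgeR adjusted p = 0.0346; DESeq2 0.000903) and 1.33-fold higher in KO (0.41, SE 0.13, edgeR adjusted p = 0.124; DESeq2 0.026). In KO against KI its log2 fold change was -0.16 (SE 0.12, edgeR adjusted p = 1). Over the alternatives its value in KO against WT was 0.34 to 0.51, with an adjusted p between 0.00793 (without KO vehicle 137) and 0.641.

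The size of the KI difference stayed between 0.51 and 0.62 over 30 alternatives, while its adjusted p lay between 0.000759 and 0.657. It was not under 0.05 without any one of 7 libraries, namely WT vehicle 122 (adjusted p = 0.0915), any exposed WT library (0.0974 without 50, 0.0998 without 56 and 0.0562 without 65), KI vehicle 102 (0.0521) and 116 (0.0689), and KI PFOA 80 (0.0953), or with sex (0.0691) or the i5 index (0.150) as a covariate, or in vehicle libraries only (0.412), PFOA libraries only (0.406) or females only (0.657). Ggps1 overlaps Arid4b, a gene on the opposite strand, and how the counting used the strand is not given in the sources used here, so reads of the pair may not have been told apart. Arid4b had a log2 fold change of -0.17 in KI against WT (SE 0.12, edgeR adjusted p = 0.749).

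Mvd, the mevalonate diphosphate decarboxylase, had 3.06 and 1.31 CPM in WT vehicle and 2.91, 2.34 and 2.83 CPM in WT PFOA. KO libraries had 2.76, 4.50 and 3.89 CPM on vehicle and 4.92, 3.19 and 5.53 CPM on PFOA, all but KO vehicle 137 above all 5 WT libraries. The log2 fold change in KO against WT was 0.75 (SE 0.25, edgeR adjusted p = 0.147), or 1.68-fold, and in KI against WT it was 0.39 (SE 0.25, adjusted p = 0.722). Its reads too lie opposite a gene model, Gm20388.

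Of all 29 members, 6 in KO against WT (12.9% of all genes), 4 in KI against WT (9.65%) and 2 in KO against KI (4.78%) were under an unadjusted p of 0.05. Dhcr7 was among them in both comparisons with WT, at log2 fold changes of 0.56 in KO (SE 0.22, adjusted p = 0.247) and 0.56 in KI (SE 0.22, adjusted p = 0.353). Msmo1, the sterol methyl oxidase, had 20.97 to 27.2 CPM in the 6 KO libraries and 16.1 to 20.1 CPM in the 5 WT libraries, with no overlap (0.39, SE 0.16, adjusted p = 0.281), and was the only member without overlap between KO and WT (2.76% of all genes). On the lower side in KO were Acat2 (log2 fold change -0.47, SE 0.21, adjusted p = 0.332), the cytosolic thiolase that starts the pathway, and Pmvk, the phosphomevalonate kinase (-0.36, SE 0.17, adjusted p = 0.383). In KI, the keto-reductase Hsd17b7 (0.47, SE 0.22, adjusted p = 0.510) and the escort gene Scap (0.22, SE 0.10, adjusted p = 0.5) were higher. Hsd17b7 (-0.46, SE 0.21) and the sterol isomerase Ebp (-0.32, SE 0.14) were lower in KO than in KI, each at an adjusted p of 1. None of these passed the threshold.

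In KO against WT, 20 of 29 members had a log2 fold change above 0 (median 0.12; 53% of all genes, median 0.02), and 22 in KI against WT (median 0.13; 51% of all genes, median 0.01). The KO median was 0.05 once sex was added to the model and 0.06 once the i5 index was (18 above 0 in each), 0.07 without WT PFOA 50 or without KO vehicle 149, and 0.21 without WT vehicle 107. The KI median was 0.21 without WT vehicle 107 (23 above 0) and 0.11 without KI PFOA 139 (18 above 0). Split by exposure, the counts were 9 members on vehicle (median -0.09) and 22 on PFOA (median 0.28) for KO, and 13 (median -0.06) and 23 (median 0.21) for KI. The WT libraries that serve as reference differ between these splits, and WT vehicle has only 2. B cell markers summed to medians of 11.4 CPM in WT, 31.1 CPM in KO and 32.8 CPM in KI (4 of 4 markers above 1 CPM, 3.11 to 17.99 CPM over the WT libraries, 15.7 to 75.2 in KO and 10.6 to 90.4 in KI). In the same order, medians were 507, 929 and 2185 CPM for cardiac muscle markers (320 to 3946, 269 to 1847 and 547 to 6884). For adipocyte markers they were 3.29, 8.37 and 11.7 CPM (0.819 to 62.8, 0.377 to 85.2 and 1.16 to 97.7). Neutrophil markers had 4.75, 16.04 and 8.72 CPM, and NK and T cell markers 17.7, 25.7 and 25.7 CPM. Lower in KO and KI were markers of alveolar macrophages (287, 242 and 176 CPM), type 1 cells (2815, 2358 and 2225) and club cells (8678, 7162 and 8439). Alveolar type 2 cell markers had medians of 8038, 9500 and 8303 CPM. In each case the ranges of the genotypes overlapped. The part of these cells in the genotype values was not tested. Srebf2 lies 3.59 Mb from Ppara on chromosome 15, and had log2 fold changes of 0.06 in KO and 0.13 in KI against WT.

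**Figure D5:**
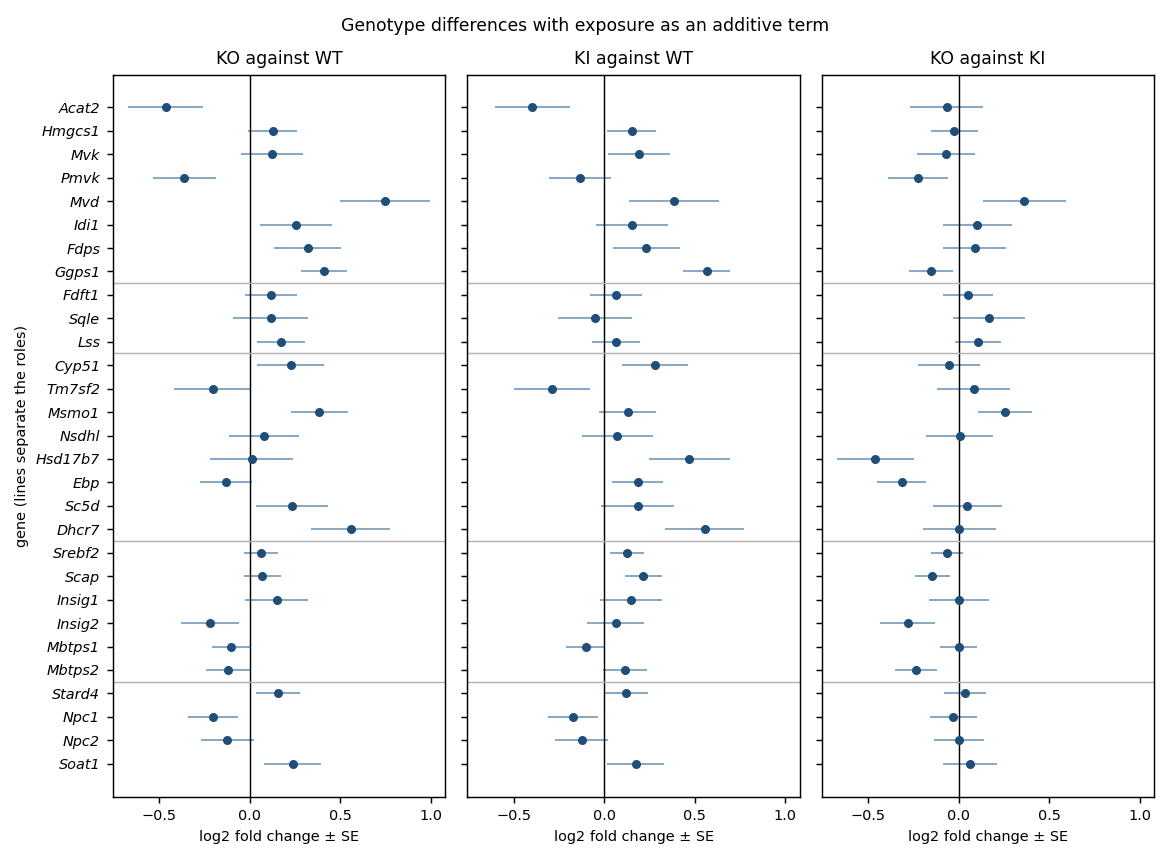
Log2 fold change of each of the 29 genes (points) with its standard error (bars) in KO against WT, KI against WT and KO against KI, with exposure as an additive term. Ggps1 lies at 0.41 and 0.57 in the first 2 panels, and Mvd at 0.75 in the first.

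Genes of the neighbouring lipid pathways gave other values on PFOA. Their lists were chosen with earlier results of these data known, and the paper had named Mylip and Scd1 among its top genes. The counts from these lists are therefore descriptive and no independent test against the share of all genes. LXR is the receptor that senses oxidised sterols and turns on their export, and 4 of 6 genes of sterol efflux and LXR were higher over the 3 genotypes at an unadjusted p under 0.05 (3.8% of all genes) and 0 lower (4.47%), with a median log2 fold change of 0.56 against 0.08 for the 29 members and -0.01 for all genes. Within genotypes, 3 were higher in WT (3.12% of all genes), 3 in KO (3.74%) and 2 in KI (1.47%). In each genotype 0 were lower (4.23%, 6.06% and 1.12% of all genes). Mylip, an LXR target whose product marks lipoprotein receptors for degradation, had 44.4 and 34.1 CPM in WT vehicle, 101, 70.5 and 57.8 CPM in WT PFOA, 25.6, 45.2 and 36.3 CPM in KO vehicle and 55.0, 84.6 and 62.5 CPM in KO PFOA. In KI it had 52.5, 30.7 and 38.8 CPM on vehicle and 110.4, 87.4 and 62.9 CPM on PFOA. It was higher in all exposed libraries than in all vehicle libraries of its genotype, with a log2 fold change of 0.99 (SE 0.15, edgeR adjusted p = 0.0494), just under 2-fold, and was the only gene of the whole table under an adjusted p of 0.05 there. That adjusted p was under 0.05 in 6 of the 17 fits that left out a library.

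Abca1, the exporter of cholesterol, had a log2 fold change of 0.73 on PFOA over the 3 genotypes (SE 0.15, edgeR adjusted p = 0.288; lowest over the alternatives 0.00644, with DESeq2), and Lpcat3, a lysophospholipid acyltransferase, 0.46 (SE 0.13, adjusted p = 0.436). Abca1 was also lower in KO than in WT, by a log2 fold change of -0.88 (SE 0.18, edgeR adjusted p = 0.0109), though by less than 2-fold. Of 11 genes of fatty acid synthesis under SREBP1, 6 were higher on PFOA at an unadjusted p under 0.05 (3.8% of all genes) and 0 lower (4.47%), with a median of 0.26. Within genotypes the counts were 6 higher in KO (3.74% of all genes), 0 higher and 1 lower in WT (3.12% and 4.23%). In KI, 0 were higher and 0 lower (1.47% and 1.12% of all genes). The 6 over the 3 genotypes included Acaca, the acetyl-CoA carboxylase, at 0.41 (SE 0.10, adjusted p = 0.385), Srebf1 itself at 0.30 (SE 0.07, adjusted p = 0.385) and the desaturase Scd1 at 0.93 (SE 0.24, adjusted p = 0.394). The paper, by contrast, described a downward trend of Scd1 in its PFOA-exposed mice. Of 20 other genes of sterol handling, 5 were higher (3.8% of all genes) and 0 lower (4.47%), with a median of 0.11. By genotype, 2 were higher in WT (3.12% of all genes), 2 in KO (3.74%) and 0 in KI (1.47%). The 5 included the carrier Stard5 (0.32, edgeR adjusted p = 0.436) and the lipoprotein receptors Scarb1 (0.43, adjusted p = 0.468) and Vldlr (0.31, adjusted p = 0.535). Libraries 122 and 137, which had the lowest protein-coding shares, are both vehicle libraries. Scd1 had 307 and 228 CPM there, Scarb1 19.3 and 27.4, and Vldlr 53.4 and 42.2, each below all other libraries. The lowest log2 fold changes over the alternatives were 0.65 for Scd1, 0.23 for Scarb1 and 0.18 for Vldlr. For Mylip and Abca1 they were 0.90 and 0.62. Neutrophil markers summed to a median of 5.64 CPM in the vehicle and 19.1 CPM in the PFOA libraries (4 of 4 markers above 1 CPM, 2.80 to 10.5 CPM on vehicle and 3.80 to 28.6 on PFOA), alveolar macrophage markers to 175 and 277 CPM (6 of 6 above 1 CPM, 62.4 to 287 and 176 to 329.7), and NK and T cell markers to 17.1 and 27.4 CPM (5 of 5, 7.21 to 26.4 and 17.7 to 46.5). Alveolar type 2 cell markers had medians of 7716 CPM on vehicle and 9169 CPM on PFOA, and type 1 cell markers 2120 and 2483 CPM. Club cell markers had 8952 and 6828 CPM, and ciliated cell markers 281 and 238 CPM. For each of these cell types the ranges of the exposures overlapped. The part of these cells in the values was not tested.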

How the data were processed

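The authors made stranded total RNA libraries from 6 ng of lung RNA, trimmed low-quality 3′ ends, ran STAR 2.6 (Partek Flow) against mm10 and estimated gene reads by expectation-maximization. The deposited table gives estimated counts of 31245 genes, not normalized. The annotation release is not given in the sources used here, but the members' gene starts equal those of GENCODE M21. A further WT vehicle sample that the study left out was not analysed here.

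Counts were rounded, and genes totalling 20 or more entered edgeR 4.0.16 (R 4.3.3; TMM factors, quasi-likelihood F-test, 1 coefficient per group over 17 libraries, or genotype plus exposure), with Benjamini-Hochberg adjustment over 26946 genes. Calls needed a fold change above 2 as well as an adjusted p below 0.2. CPM uses TMM factors, intervals are 95%, and 3 counts equal 0.325 to 0.729 CPM. DESeq2 1.42.0 was an alternative. On simulated counts with 200 genes changed 4-fold, edgeR recovered 173 in WT, 181 in KO and 196 over the 3 genotypes, with 30, 15 and 11 other calls. The changed genes were drawn from those above a minimum mean count. Recovery of changes smaller than 4-fold was not simulated. Libraries of a group differed by more than sampling noise (chi-square per degree of freedom at least 6.28).

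Members and lists were chosen with earlier results of these data known. All members are named. Fold changes are given for members called or under an unadjusted p of 0.05 (up to 8 a comparison) and, from the other lists, for up to 3 genes by smallest p. Other members' values, and the gene Arid4b, were named after their values were seen. Other steps used Python 3.11.15 with pandas 2.3.3, numpy 2.4.6 and matplotlib 3.10.9.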

Additional observations from a re-analysis of the deposited data

How the results depend on the processing

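Of 302 alternative counts of members called, 298 stayed at 0 and 4 moved. They were 1 gene in KI against WT at an adjusted p under 0.05 with no fold threshold, 1 and 2 genes in KI and KO against WT at an adjusted p under 0.2 with no fold threshold, and 0 to 1 gene for PFOA in WT over the fits that left out each library (1, Dhcr7, without WT vehicle 107, where 1672 of 26749 genes were called). In the other 9 comparisons the fits without each library gave 0. Of 633 alternative fold changes of the 22 named member results, 632 kept their direction and side of the threshold, 1 passed it (Dhcr7 in WT, above) and 0 reversed. The 22 results were chosen for a small unadjusted p in these data and none was past the threshold in the main fit, so the tally is no independent support. Among 783 alternative fold changes of the other listed genes, 11 passed the threshold (9 of Mylip, 1 of Abca1 and 1 of Scd1) and 3 reversed. All 3 were of Acss2 in KO against WT (log2 fold change -0.26), at 0.095 in females only and 0.11 in PFOA libraries only. Over the fits without each library Acss2 lay between -0.35 and 0.021 (positive without WT vehicle 122), and the cause was not tested. With protein-coding scaling the all-gene median for PFOA in KO was -0.13, and this left 22 of 29 members above 0. Adjusting for sex moved KO against KI from 15 to 7 of 29 members above 0. No paired analysis was possible because each animal number occurs once, in 1 group. Counts of 8 to 60 per library limit Mvd, Dhcr7 and Hsd17b7, and 2 vehicle libraries limit every WT value. The labels name each library by its own animal.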
